A study of Mus musculus with 374 samples.

Results

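S100 proteins are small calcium-binding proteins with a pair of EF-hand motifs, and most of them work as dimers. 7 genes of the family were followed through 5 sorted blood cell populations of the mouse, chosen by symbol: S100a4, S100a6, S100a8, S100a9, S100a10, S100a11 and S100a13. Of these, 6 had counts among the 19829 mouse genes of the table, and S100a4 was not analysed here. S100A8 and S100A9 pair to form calprotectin, which fills much of the cytosol of neutrophils, binds zinc and manganese and is released as an antimicrobial and inflammatory signal. S100A10 binds annexin A2 at the plasma membrane, S100A11 binds annexin A1, S100A6 is also known as calcyclin, and S100A13 takes part in the export of proteins that lack a signal peptide.

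All cells came from 1 female C57BL/6 mouse aged 10 to 13 weeks and were sorted singly, with the sorter's readings kept for each well, into 1 plate of 384 wells. The bone marrow gave 44 B lymphocytes (B220+), 96 erythroblasts (Ter119+ CD44+), 96 granulocytes (Mac1+ Gr1+) and 95 progenitor/stem cells (Lin- Kit+ Sca1+, here LSK), and the thymus gave 43 T lymphocytes (CD3+). B lymphocytes filled plate rows A and B, erythroblasts rows C to F and granulocytes rows G to J. LSK filled rows K to N and T lymphocytes rows O and P. Differences between populations thus cannot be told apart from differences between plate rows. Transcripts were counted by CEL-seq2, in which each molecule is tagged once near its 3′ end with a unique molecular identifier (UMI), so counts were not divided by transcript length. Each population is therefore 1 sample of 1 mouse, no test between populations was possible, and the 95% intervals given with values cover counting error only.

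UMIs on mouse genes summed to 403506 in granulocytes, 834812 in LSK, 666728 in erythroblasts, 135808 in B lymphocytes and 200396 in T lymphocytes, and 369 of 374 wells held at least 1000. Without any S100 gene, 366 wells resembled their own population most. The other 8 included 4 wells under 1000 UMIs, granulocyte wells I17 and J12, LSK well K5 and B lymphocyte well A8. Well A8 had the Gr1 (15209) and Mac-1 (1268) fluorescence of the granulocyte gate, resembled granulocytes most, and held 133 of the 219 S100a8 UMIs and 172 of the 281 S100a9 UMIs of the B lymphocytes, so B lymphocyte values are given with and without it. Markers of each labelled population were highest in that population. The 6 granulocyte markers other than S100 genes took 5.43% of UMIs in granulocytes, and in the other populations 0.0841% (erythroblasts) to 0.301% (B lymphocytes), with UMIs on all 6 genes in every population. Well A8 held 214 of the 409 marker UMIs of the B lymphocytes, whose share was 0.149% without it, under the 0.183% of T lymphocytes.

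The 6 genes lie on mouse chromosome 3 (GENCODE M21, GRCm38; the build used for the counts is not given in the sources used here), and none overlaps another annotated gene. S100a13 (chr3:90514435-90524581), S100a6 (chr3:90612882-90624181) and S100a8 (chr3:90668978-90670035) are on the plus strand. S100a9 (chr3:90692632-90695721) is on the minus strand, and its start lies 26.7 kb from that of S100a8. S100a11 (chr3:93520488-93526287) and S100a10 (chr3:93555080-93564643) are on the plus strand farther along. A pseudogene of S100a11 on chromosome 12 held 14 UMIs in all, 11 of them in granulocytes, and how reads were split between these like sequences is not known.

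The 250 bases before the RefSeq start (GRCm38.p6) are shown for S100a8 and S100a9, which varied together across granulocytes, and for S100a11 and S100a6, which varied together less closely. Sequences run 5′ to 3′ on the gene's strand, and capitals mark matches on either strand to TTNNGNAA (reverse TTNCNNAA, the C/EBP type), GAGGAA (reverse TTCCTC, the core of PU.1 and other ETS factors) and TATAAA (reverse TTTATA).
S100a8, chr3:90668821-90669070, plus strand: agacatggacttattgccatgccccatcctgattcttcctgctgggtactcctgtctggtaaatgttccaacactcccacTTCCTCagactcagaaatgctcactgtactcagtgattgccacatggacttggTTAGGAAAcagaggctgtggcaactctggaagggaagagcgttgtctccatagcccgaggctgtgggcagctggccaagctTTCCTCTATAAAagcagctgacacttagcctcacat
S100a9, chr3:90695722-90695971, minus strand: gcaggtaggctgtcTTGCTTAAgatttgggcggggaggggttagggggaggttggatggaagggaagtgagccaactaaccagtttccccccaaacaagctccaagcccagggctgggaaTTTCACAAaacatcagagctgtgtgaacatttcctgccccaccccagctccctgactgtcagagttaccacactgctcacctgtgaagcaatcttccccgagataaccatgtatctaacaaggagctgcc
S100a11, chr3:93520246-93520495, plus strand: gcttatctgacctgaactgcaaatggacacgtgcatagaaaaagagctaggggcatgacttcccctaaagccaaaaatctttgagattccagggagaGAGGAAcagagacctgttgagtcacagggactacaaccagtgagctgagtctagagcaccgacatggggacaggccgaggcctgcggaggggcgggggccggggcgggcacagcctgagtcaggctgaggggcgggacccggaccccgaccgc
S100a6, chr3:90612644-90612893, plus strand: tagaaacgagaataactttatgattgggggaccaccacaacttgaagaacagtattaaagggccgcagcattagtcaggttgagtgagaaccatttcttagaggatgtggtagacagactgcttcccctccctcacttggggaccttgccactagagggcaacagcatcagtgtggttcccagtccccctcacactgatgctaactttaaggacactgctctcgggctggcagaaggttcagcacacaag
S100a8 held 1 match to TTNNGNAA, 2 to GAGGAA and 1 to TATAAA, which begins 30 bases before the start and directly follows the second GAGGAA match, so both stand in 1 run of capitals. S100a9 held 2 matches to TTNNGNAA, S100a11 held 1 to GAGGAA, and S100a6 and S100a13 held 0 of the 3 motifs. Over 32851 promoters of the same length, 36.8% held TTNNGNAA, 23.3% GAGGAA and 12.4% TATAAA, so each match is common and is given as a description of these letters, not as a binding site. RefSeq gave an upstream sequence for 5 of the 6 genes.

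S100a8 and S100a9 were the most abundant members in every population and stood far higher in granulocytes than elsewhere. In granulocytes S100a9 reached 21278 UMIs, or 52733 CPM (UMIs per 1000000 UMIs on mouse genes, 52027 to 53446), the second most counted gene of the population. S100a8 reached 17990 UMIs, or 44584 CPM (43935 to 45241), the third. The S100a8 level was 454 CPM in LSK, 435 in erythroblasts, 793 in T lymphocytes and 1613 in B lymphocytes, of which 655 (524 to 809) were left without well A8. For S100a9 the levels were 630 CPM in LSK, 444 in erythroblasts, 1028 in T lymphocytes and 2069 in B lymphocytes, or 830 (682 to 1002) without that well. Without well A8, T lymphocytes came second for both genes, and did not differ from B lymphocytes beyond counting error (1.21-fold, 0.926 to 1.59, for S100a8 and 1.24-fold, 0.977 to 1.58, for S100a9). LSK and erythroblasts were likewise not apart for S100a8 (1.04-fold, 0.893 to 1.22), but were for S100a9 (1.42-fold, 1.23 to 1.64).

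Single wells showed the same contrast. Granulocyte wells held 0 to 589 S100a8 UMIs (median 182) and 0 to 639 S100a9 UMIs (median 221). LSK wells held 0 to 30 (median 3) and 0 to 55 (median 4), erythroblast wells 0 to 15 (median 2) and 0 to 13 (median 2.5), and T lymphocyte wells 0 to 24 (median 3) and 1 to 34 (median 4). In B lymphocytes the highest well was A8, with 133 and 172, over medians of 1.5 and 2. Apart from well A8, the other populations overlapped granulocyte wells of low counts only.

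S100a6 and S100a11 were also highest in granulocytes, at much lower levels. Granulocyte wells held 0 to 38 S100a11 UMIs (median 12) and 0 to 35 S100a6 UMIs (median 10), and the medians elsewhere were 0 to 2 and 0 to 1. S100a11 had 1180 UMIs there, 2924 CPM (2760 to 3096), against 324 CPM in B lymphocytes (244 without well A8), 266 in LSK, 215 in T lymphocytes and 106 in erythroblasts. In this order only granulocytes at the top and erythroblasts at the bottom stood apart from their neighbours. S100a6 had 1146 UMIs in granulocytes, 2840 CPM (2678 to 3009), and 107 CPM in LSK, 110 in T lymphocytes and 64.5 in erythroblasts. Its B lymphocyte level of 331 CPM rested on well A8, which held 32 of 45 UMIs, and was 99.0 (52.7 to 169) without that well. The S100a6 levels of T lymphocytes, LSK, B lymphocytes and erythroblasts then did not differ from neighbour to neighbour beyond counting error. LSK and erythroblasts, no longer neighbours, did differ (1.65-fold, 1.14 to 2.44).

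S100a10 had a different order. It was highest in T lymphocytes (52 UMIs, 0 to 8 per well, 259 CPM, 194 to 340), followed by B lymphocytes (191 CPM), LSK (176 CPM) and granulocytes (131 CPM, 98.4 to 172), and no neighbours in this order differed beyond counting error. Erythroblasts were lowest with 12 UMIs, 18.0 CPM (9.30 to 31.4), which was 7.30-fold (3.85 to 15.0) under granulocytes. S100a13 was rare everywhere, with 20 UMIs in granulocytes, 34 in LSK, 7 in T lymphocytes and 3 each in B lymphocytes and erythroblasts. Its granulocyte and LSK levels of 49.6 and 40.7 CPM did not differ beyond counting error (1.22-fold, 0.664 to 2.18).

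**Figure D1:**
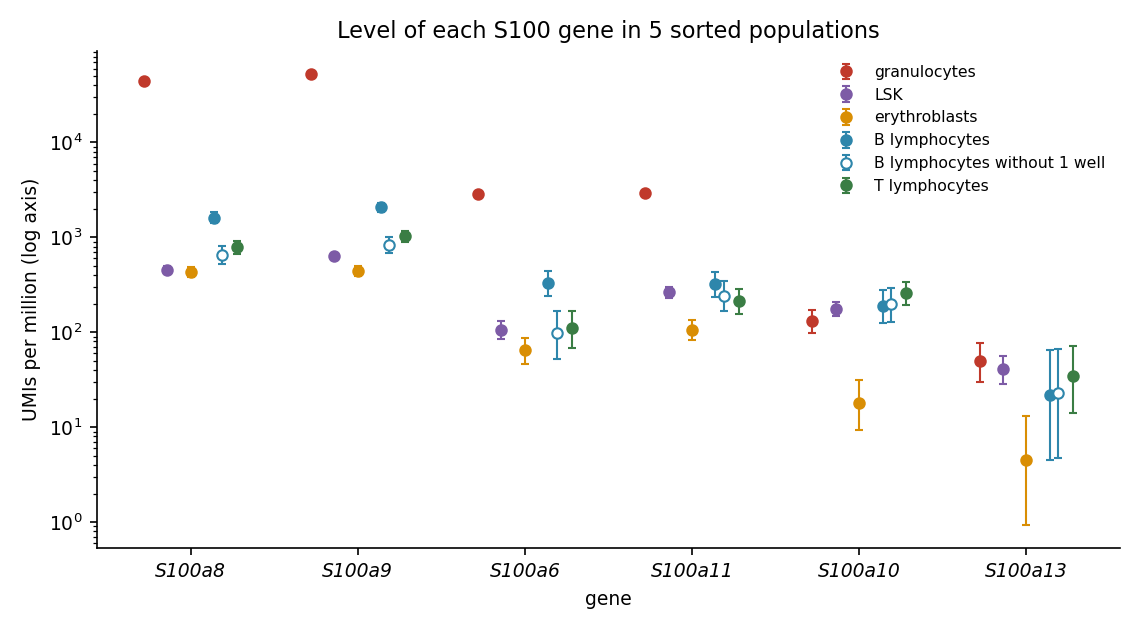
Level of each S100 gene in CPM (log axis) in the 5 populations, with bars for the 95% Poisson interval and an open circle for B lymphocytes without well A8. S100a8 and S100a9 stand at 44584 and 52733 in granulocytes, S100a6 and S100a11 at 2840 and 2924 there, and S100a10 is highest in T lymphocytes.

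The granulocytes were set against each other population in turn. A gene entered a comparison with at least 50 UMIs in both populations together and was called at a difference of at least 2-fold, with sums under 3 UMIs raised to 3. The 4 comparisons share the granulocyte wells. S100a8 and S100a9 had over 50 UMIs in every population, whereas 3 members entered some comparisons only through their granulocyte UMIs: S100a6 against erythroblasts, B lymphocytes and T lymphocytes, S100a11 against B lymphocytes and T lymphocytes, and S100a10 against erythroblasts and B lymphocytes. S100a13 entered against LSK only on the UMIs of both populations, 20 in granulocytes and 34 in LSK. Against LSK, all 6 measured members entered and 4 were at least 2-fold higher in granulocytes, where 13.7% of 4440 genes were higher and 42.7% lower. Against erythroblasts 5 members entered and 5 were higher (26.2% of 3057 genes higher, 40.2% lower). Against B lymphocytes 5 entered and 4 were higher (29.9% of 1638 genes higher, 20.1% lower), and against T lymphocytes 5 entered and 4 were higher (22.8% of 1961 genes higher, 30% lower). The filter favours a higher call for members that entered only through their granulocyte UMIs. The counts against erythroblasts, B lymphocytes and T lymphocytes are therefore not read against the shares of all genes. The 4 genes S100a6, S100a8, S100a9 and S100a11 were higher in every comparison, S100a10 was higher against erythroblasts only, and 0 members were lower by 2-fold, a count that became 1 (S100a10) under some other scalings or choices of wells. Against LSK the median log2 ratio of the members that entered was 4.10, beside -0.76 over all genes that entered. Against erythroblasts, B lymphocytes and T lymphocytes the members' medians were 5.46, 3.17 (4.84 without well A8) and 4.69. These are the values of S100a6, S100a11 (S100a6 without well A8) and S100a6. Both genes entered there only through their granulocyte UMIs, so these medians are not set beside all genes.

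For S100a8 the fold over LSK was 98.2 (88.7 to 109), and 6 of the 4440 genes had a larger one. The S100a9 fold was 83.7 (76.8 to 91.4), that of S100a6 26.6 (21.5 to 33.4) and that of S100a11 11.0 (9.52 to 12.8). Over T lymphocytes the folds were 56.2 (48.1 to 66.1) for S100a8, 51.3 for S100a9, 25.9 for S100a6 and 13.6 for S100a11. The order of S100a8 over S100a9 was turned against erythroblasts, where S100a9 was 119-fold (106 to 134) and S100a8 103-fold (91.3 to 116) higher, with overlapping intervals. Over B lymphocytes well A8 set the size: S100a8 was 27.6-fold higher with it and 68.1-fold (55.1 to 85.1) without it, S100a9 25.5 and 63.5-fold, S100a6 8.57 and 28.7-fold, and S100a11 9.03 and 12.0-fold.

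S100a10 went the other way in 3 of the 4 comparisons, short of 2-fold as CPM of summed UMIs. Its log2 ratio of granulocytes over T lymphocytes was -0.98 (-1.56 to -0.40), over B lymphocytes -0.54 (-1.25 to 0.19) and over LSK -0.42 (-0.90 to 0.04). With TMM scaling these became -0.24, 0.12 and 0.35, so the direction against B lymphocytes and LSK turned with the scaling. Other alternatives took the gene past 2-fold lower. Over T lymphocytes the log2 ratio was -1.03 with scran size factors, -1.05 relative to ERCC spike-ins, -1.25 as the mean CPM of wells and -1.28 without the wells that resembled another population most. Over B lymphocytes it was -1.37 with scran and -1.09 as the mean CPM of wells, and over LSK -1.38 relative to ERCC. Against erythroblasts its log2 ratio of 2.87 (1.94 to 3.91) fell under 2-fold, to 0.70, with scran size factors. S100a13 did not reach 50 UMIs in 3 comparisons. Its log2 ratio over LSK of 0.28 became -0.67 relative to ERCC spike-ins and 1.05, past 2-fold, with TMM scaling.

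S100a8 UMIs per S100a9 UMI ran from 0.721 to 0.980 over the 5 populations. As a fold from the lowest to the highest population, this range was narrower than for any other member. In granulocytes there were 0.845 S100a8 UMIs per S100a9 UMI (0.829 to 0.862), and the plate rows gave 0.819 (row G), 0.870 (row H), 0.858 (row I) and 0.832 (row J). The ratio was 0.772 (0.624 to 0.954) in T lymphocytes, 0.980 (0.830 to 1.16) in erythroblasts and 0.779 (0.650 to 0.933) in B lymphocytes, or 0.789 (0.588 to 1.06) without well A8. All of these intervals overlap that of granulocytes. In LSK the ratio was 0.721 (0.630 to 0.824), with an interval below those of granulocytes and erythroblasts. K5, the LSK well that resembled B lymphocytes most, held 5 S100a8 and 25 S100a9 UMIs. Without it the ratio was 0.747 (0.651 to 0.855), which overlaps both.

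Across the 82 granulocyte wells with at least 20 UMIs on the pair (median 449), the ratio ran from 0.444 to 1.14 with a median of 0.838. S100a9 had more UMIs in 74 wells, S100a8 in 7, and 1 well was even. S100a8 made up 45.1% ± 3.83 (SD) of the pair per well, where counting error alone would give an SD of 2.93, and the interval of 72 wells held the pooled share. The spread between wells was thus somewhat wider than counting error, with a dispersion of 1.96.

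The other members did not keep to S100a9 in this way. S100a11 had 5.55 UMIs per 100 S100a9 UMIs in granulocytes (5.23 to 5.88), 42.2 in LSK (35.9 to 49.5), 24.0 in erythroblasts (18.2 to 31.2), 20.9 in T lymphocytes and 15.7 in B lymphocytes (29.4 without well A8). At the granulocyte proportion, the 526 S100a9 UMIs of LSK would go with 29.2 S100a11 UMIs, and 222 were counted. S100a6 had 5.39 per 100 in granulocytes and 10.7 to 16.9 in the other populations. S100a10 had 0.249 (0.187 to 0.326) in granulocytes, 27.9 in LSK and 25.2 in T lymphocytes. Of the granulocyte markers without an S100 gene, Ngp had 29.7 UMIs per 100 S100a9 in granulocytes and 25.5 in LSK, whereas Lcn2 had 16.1 and 60.1. S100a8, S100a9 and the granulocyte markers were all counted in every population, and the part of RNA from granulocytes in these levels was not tested.

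**Figure D2:**
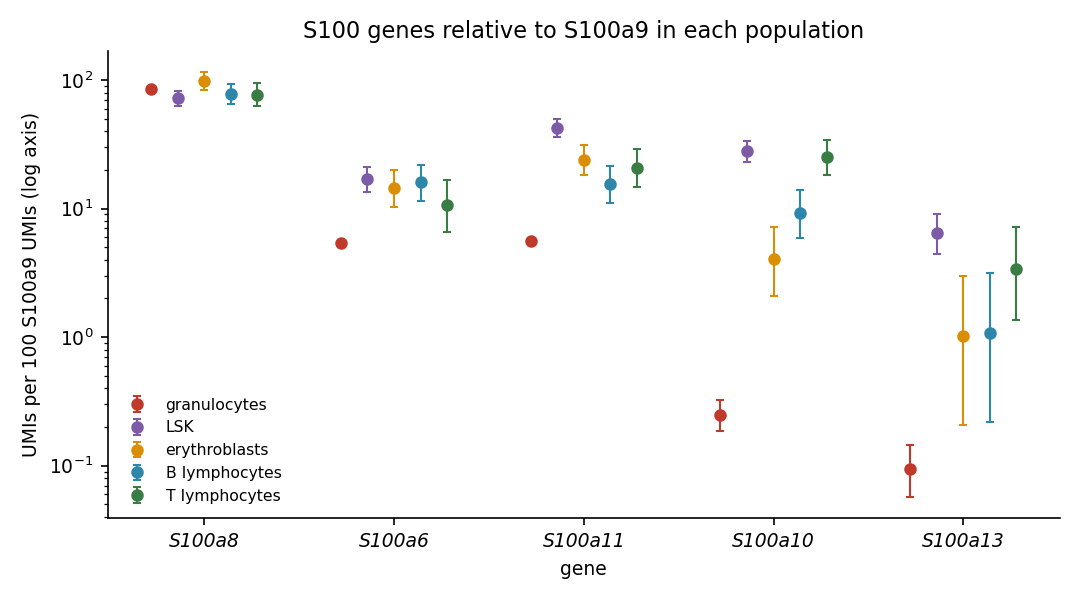
UMIs of the other 5 measured S100 genes per 100 S100a9 UMIs in each population (log axis, all wells), with bars for the 95% exact interval. S100a8 lies between 72.1 and 98.0 everywhere, whereas S100a6, S100a11, S100a10 and S100a13 are lowest in granulocytes.

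The share of wells with a UMI depends on depth, so each well with at least 1000 UMIs was thinned to 1000. At this depth S100a8 was found in 91.5% of granulocyte wells, 35.5% of LSK wells, 36.3% of erythroblast wells, 49.6% of B lymphocyte wells and 51.5% of T lymphocyte wells. Before thinning these shares were 97.9%, 95.8%, 96.9%, 90.9% and 93.0%, at median depths of 3880, 7959, 6114, 3029 and 4347 UMIs. S100a11 was found in 88.0% of thinned granulocyte wells and 10.0% to 23.9% elsewhere, and S100a6 in 83.5% and 7.09% to 11.7%. S100a10 was found in 17.9% of thinned T lymphocyte wells, 16.5% of B lymphocyte wells, 15.7% of LSK wells, 7.19% of granulocyte wells and 1.67% of erythroblast wells.

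Within granulocytes the pair varied widely between wells. Over the 94 wells with at least 1000 UMIs, S100a8 and S100a9 together took 0% to 19.7% of UMIs, with a median of 11.4% and quartiles of 7.81% and 14.2%. There were 13 wells under 2%, 3 from 2% to 4%, 8 from 4% to 8%, 30 from 8% to 12%, 32 from 12% to 16% and 8 at 16% or more. By plate row the median was 9.68%, 11.6%, 12.3% and 11.3% (rows G to J). Medians in the other populations were 0.0915% in LSK, 0.0860% in erythroblasts, 0.125% in B lymphocytes and 0.157% in T lymphocytes, and their highest wells were A8 with 6.73% and K5 with 1.498%.

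**Figure D3:**
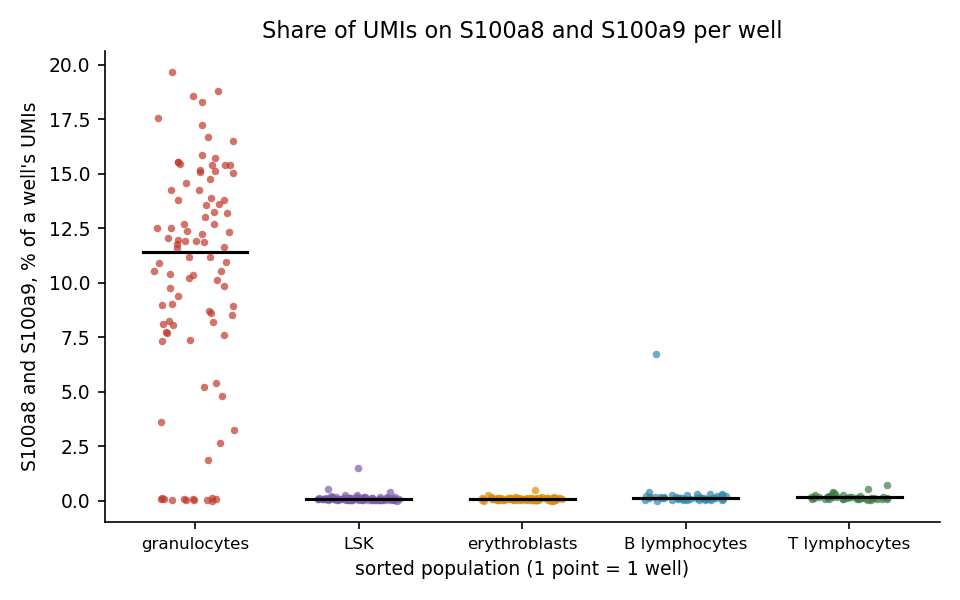
Share of each well's UMIs on S100a8 and S100a9 (in %) in wells with at least 1000 UMIs, 1 point per well, with the median as a black bar. Granulocyte wells spread from 0% to 19.7% with a group near 0, and of the other wells only A8 of the B lymphocytes exceeds 2%.

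The granulocyte wells with almost no S100a8 and S100a9 had low Gr1 fluorescence on the sorter. The gate held 15 wells of at least 1000 UMIs with Gr1 under 2000, a limit set after the values were seen, and 79 with Gr1 of 2060 to 49318. Of the 15 wells, 12 had at most 0.128% of UMIs on the pair (0 to 4 S100a8 and 0 to 5 S100a9 UMIs), and H21, I18 and J24 had 18.3%, 15.1% and 11.9%. Of the 79 wells, 1 was under 2% (at 1.89%), and the median was 11.9%. The 12 wells thus lay apart from the rest in the pair, while 3 wells of equally low Gr1 did not.

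Genes of other cell types moved with this split. A list of 7 monocyte genes, added after the data were seen (Csf1r, Ccr2, Fn1, F13a1, Ms4a6c, Klf4 and Irf8), had 23 to 98 UMIs in each of the 12 wells, 0 in H21, I18 and J24, and a median of 0 (0 to 140) in the 79 wells. Granulocyte markers other than S100 genes had 4 to 15 UMIs in the 12 wells, 623 to 658 in the 3 wells and 6 to 914 (median 199) in the 79. For example, Fn1 had 264 UMIs in 11 of the 15 wells and 42 in 5 of the 79, and Ccr2, the receptor that brings monocytes out of the marrow, 231 and 45. A list of 5 eosinophil genes, also added, had 0 UMIs in the 12 wells on the 3 genes with counts. The part of monocytes in these values was not tested beyond this list.

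The members differed in how they followed this split. S100a10 was 7.59-fold (4.16 to 14.4) higher in the 15 wells than in the 79, at 409 against 53.9 CPM, and the 15 wells held 36 of the 53 granulocyte UMIs. Wells J12, J14 and G13 held 9, 8 and 6 of these. Of the 17 UMIs in the 79 wells, 10 came from well I13, the deepest granulocyte well (22425 UMIs), which had the 140 UMIs on the monocyte list. Well I13 also held 589 S100a8 and 586 S100a9 UMIs. It was picked after the data were seen, as the well of the 79 with most S100a10, so leaving it out could only raise the fold. Without it the 78 wells left had 7 UMIs, 23.9 CPM, and the fold was 17.1 (7.52 to 45.6). Wells J12, J14 and G13 on the other side were kept. S100a8, S100a9, S100a11 and S100a6 were lower in the 15 wells, and the 3 wells H21, I18 and J24 gave nearly all of the S100a8 and S100a9 there. S100a6 was still counted in each of the 12 wells, with 5 to 17 UMIs, beside a median of 10.5 over all 94 wells. S100a11 had 1 to 11 UMIs in the 12 wells, beside a median of 12. These counts are not scaled to depth, and the 15 wells were deeper than the 79 (median 5562 against 3526 UMIs). As CPM, the 15 wells together had 1341 of S100a6 against 3259 in the 79, and 955 of S100a11 against 3471. Without the wells of low Gr1, the log2 ratio of S100a10 was -2.27 over T lymphocytes and -1.71 over LSK, both past 2-fold. Against B lymphocytes (-1.83) and erythroblasts the gene then had 43 and 29 UMIs in both populations together, under the 50 needed to enter.

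**Figure D4:**
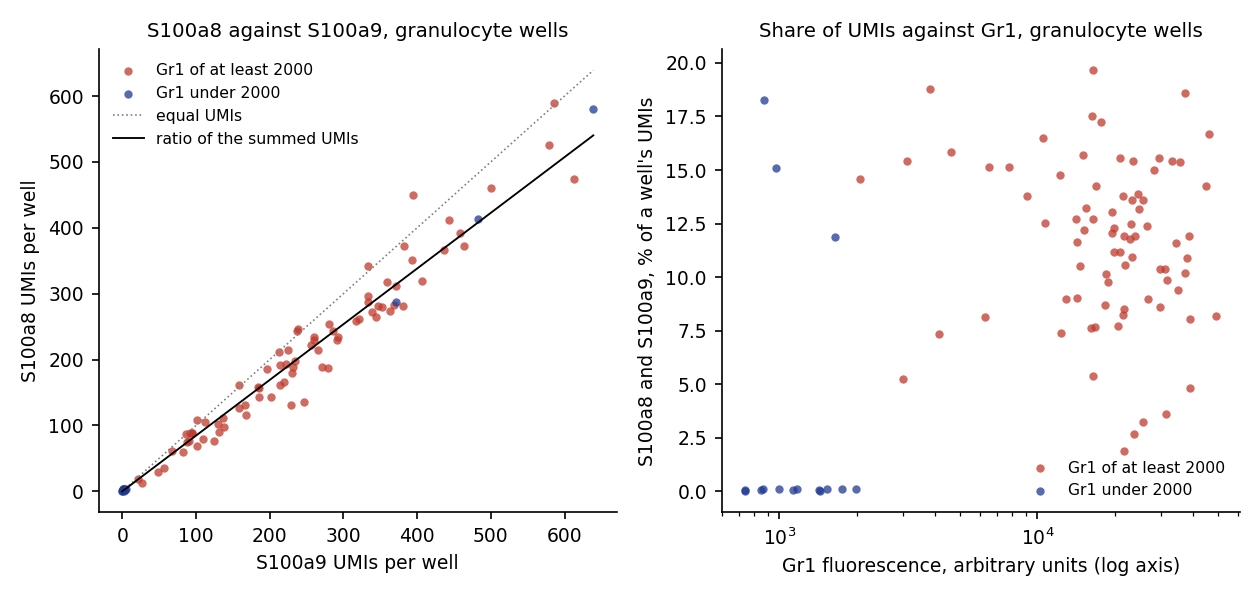
Left, S100a8 against S100a9 UMIs in each granulocyte well, with lines for equal UMIs and for the ratio of the sums (0.845). Right, share of UMIs on the pair (in %) against Gr1 fluorescence (arbitrary units, log axis): 12 of the 15 wells with Gr1 under 2000 lie near 0, and 78 of the 79 others lie above 2%.

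S100a8 varied most like S100a9, and S100a6 most like S100a11 among the members, once wells of low Gr1 were set aside. Because 12 of the 15 wells of low Gr1 lay apart in the pair, Spearman correlations of CPM are given over the 79 wells with Gr1 of at least 2000. The split also leaves out the 3 wells H21, I18 and J24. It keeps well I13, which had 140 UMIs on the monocyte list beside 589 S100a8 and 586 S100a9 UMIs. The correlations are a description of cells that share a library and a plate. S100a8 and S100a9 had a correlation of 0.92, and S100a6 and S100a11 of 0.59. Between the pairs it was -0.03 (S100a8 and S100a6), 0.03 (S100a9 and S100a6), 0.15 (S100a8 and S100a11) and 0.12 (S100a9 and S100a11). Over all 94 wells the values within the pairs were 0.95 and 0.65, and S100a8 with S100a11 had 0.40. The separation of the pairs depended on these wells and on the measure: as a Pearson correlation of log2(CPM + 10) over the 94 wells, S100a6 and S100a11 had 0.42, under the 0.64 of S100a8 with S100a11 and the 0.62 of S100a9 with S100a11. S100a10 and S100a13 had too few UMIs for a correlation in these cells.

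The pairs differed in how they varied with granule genes that neutrophils make at different stages. The specific granule genes (Ngp, Camp, Ltf and Lcn2), made by myelocytes and metamyelocytes, had a summed level that correlated with S100a8 at 0.53 and S100a9 at 0.49, but with S100a6 at -0.53 and S100a11 at -0.51. The late genes were listed as Mmp8, Mmp9, Retnlg and Cxcr2, of which Mmp9, Retnlg and Cxcr2 mark band and segmented neutrophils. The summed level of this list had correlations of 0.53 with S100a6, 0.52 with S100a11, 0.14 with S100a8 and 0.26 with S100a9. Retnlg held 4998 of the 7721 UMIs of this list over all populations. Mmp8 did not follow the list's order, with 0.13 for S100a6, 0.08 for S100a11, 0.29 for S100a8 and 0.34 for S100a9. Cxcr2, the chemokine receptor of mature neutrophils, had -0.44 with S100a8 and 0.50 with S100a6. Camp, the cathelicidin precursor, had 0.46 and -0.60. The primary granule genes (Mpo, Elane, Prtn3 and Ctsg) had UMIs in 27 of the 94 wells and correlations of -0.10 to 0.06 with the 4 genes over the 79. Most of these UMIs lay in well I13, with 48 of the 50 Mpo, 128 of the 142 Elane and 63 of the 74 Prtn3 UMIs of the granulocytes.

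**Figure D5:**
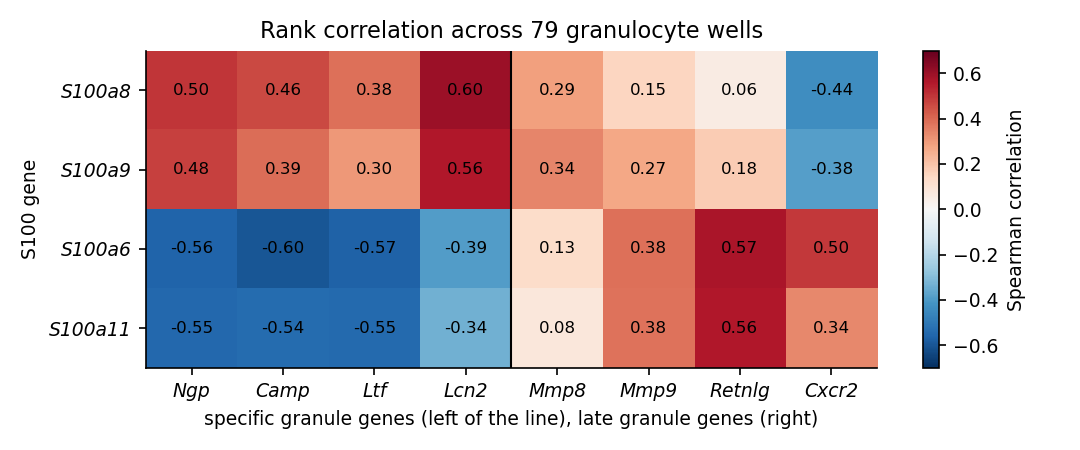
Spearman correlation of CPM between 4 S100 genes and 8 granule genes across the 79 granulocyte wells with Gr1 of at least 2000. S100a8 and S100a9 are positive with the specific granule genes, S100a6 and S100a11 are negative with them and positive with Mmp9, Retnlg and Cxcr2, while Mmp8 is higher with S100a8 and S100a9 (0.29 and 0.34) than with S100a6 and S100a11 (0.13 and 0.08).

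The sorter's readings and depth moved with both pairs. Over the 79 wells Gr1 fluorescence correlated with S100a6 at 0.41 and S100a11 at 0.35, and with S100a8 at -0.16 and S100a9 at -0.11. Mac-1, the other marker of the gate, gave -0.36 and -0.34 with S100a6 and S100a11, and -0.10 and -0.14 with S100a8 and S100a9. Side scatter, which rises with granularity, gave 0.38 and 0.36 with S100a6 and S100a11, and -0.28 and -0.22 with S100a8 and S100a9. Forward scatter gave -0.29 and -0.16 with S100a6 and S100a11, and 0.07 and 0.04 with S100a8 and S100a9. The time at which a well was sorted gave 0.32 with S100a8 and 0.33 with S100a9, against 0.01 with S100a6 and 0.15 with S100a11. UMIs per well gave -0.42 with S100a6 and -0.57 with S100a11, against 0.23 with S100a8 and S100a9, and the part of depth, sort time and scatter in these correlations was not tested.

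By the rule of closest pattern (the top 5 of 557 other genes that were seen in 50% or more of the 94 wells), S100a8 was followed by S100a9, Pglyrp1 (0.75), Lcn2 (0.72), Anxa1 (0.69) and Wfdc21 (0.67). S100a9 had S100a8 and the same other 4 genes, with Pglyrp1 at 0.74 and Lcn2 at 0.70. Pglyrp1 codes for a peptidoglycan recognition protein of granules, Lcn2 for the iron-scavenging lipocalin of specific granules, and Anxa1 for annexin A1. Without the wells of low Gr1 these places changed. Over the 79 wells S100a8 was followed by S100a9, Lyz2 (the lysozyme gene, 0.69), Pglyrp1 (0.62), Ifitm6 (0.61) and Lcn2 (0.60), and S100a9 by S100a8, Lyz2 (0.64), Pglyrp1 (0.61), Lcn2 (0.56) and I830127L07Rik (0.54), so Anxa1 and Wfdc21 left the top 5 of both. S100a6 was followed by Retnlg (0.66), S100a11, Lilr4b (0.62), Grina (0.60) and Cxcr2 (0.59), and S100a11 by Retnlg (0.69), Tmsb4x (0.67), Grina (0.67), S100a6 and Msrb1 (0.64). Over the 79 wells the order was S100a11, Retnlg (0.57), Ccl6 (0.54), Lilr4b (0.53) and Tmsb4x (0.52) for S100a6, without Grina and Cxcr2, and S100a6, Tyrobp (0.58), Tmsb4x (0.57), Retnlg (0.56) and Grina (0.53) for S100a11, without Msrb1. The gene farthest from S100a6 was Chil3, with -0.67 over the 94 wells and -0.63 over the 79. For S100a10, taken in the 42 T lymphocyte wells where its median count was 1 UMI, Ms4a6b (0.55) and Lsp1 (0.47) came first, on counts too sparse to rank genes firmly. S100a13 had UMIs in too few wells for the rule.

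Of the 11 other S100 genes looked up, 4 had counts (S100a1, S100a3, S100a14 and S100b), with 33 UMIs in all, 28 of them on S100a1 and 19 of these in LSK. Among 9 genes for proteins that bind S100 proteins inside the cell, 8 had counts and 7 reached 50 UMIs. Anxa1, the partner of S100A11, was highest in granulocytes like S100a11 itself (2235 CPM, against 15.0 to 95.7 CPM elsewhere). Ahnak, a large scaffold bound by the S100A10 complex, also had its highest summed level there (813 CPM, against 10.5 to 125 CPM), but in few wells. It had UMIs in 19 of 96 granulocyte wells (median 0, up to 41), where Anxa1 had UMIs in 86 (median 5, up to 47), and 287 of its 328 UMIs lay in 12 of the 15 wells with Gr1 under 2000 (3262 CPM, against 130.0 in the 79). Myh9, the non-muscle myosin heavy chain, and Iqgap1, a cytoskeletal scaffold, had 1195 and 1199 CPM in granulocytes. Anxa6 was highest in T lymphocytes (354 CPM, against 69.4 in granulocytes), Anxa5 had 81.8 CPM in granulocytes and 64.9 in T lymphocytes, and Cacybp, a binding protein of S100A6, was highest in LSK (138 CPM, against 44.6 in granulocytes).

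Of the listed receptor genes for extracellular S100A8 and S100A9, Tlr4, Cd14, Ly96 and Ager were hardly counted in any population. All 7 listed genes had counts, and 3 reached 50 UMIs. Tlr4 and Cd14 had 1 and 2 UMIs in granulocytes, Ly96, which codes for the TLR4 co-receptor MD-2, had 12, and Ager, the gene of the receptor RAGE, had 4. Bsg, which codes for basigin, was highest in erythroblasts with 551 UMIs (826 CPM, against 89.2 in granulocytes). Cd36 had 75 of its 87 UMIs in erythroblasts, and Cd69 had 19 UMIs in T lymphocytes, 21 in LSK and 4 in granulocytes.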

How the data were processed

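The authors deposited raw UMI counts per gene and well, made with *scPipe* from CEL-seq2 reads (alignment, assignment to exons, demultiplexing by barcode, collapsing of UMIs). Which aligner version, genome build, annotation and strand setting gave the counts is not stated in the sources used here. Each column was assigned to a sample through its well name, and 9 columns of other wells were left out. ERCC spike-ins (6.76% of UMIs) were left out of totals. Symbols came from GENCODE M21.

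UMIs were summed per population and given as CPM with 95% exact Poisson intervals. Ratios have exact conditional binomial intervals and shares exact binomial intervals. Values per well used wells with at least 1000 UMIs, thinned shares were computed by the hypergeometric formula, and a gene entered a comparison with at least 50 UMIs. Wells were matched to populations by correlation of log2(CPM + 10) over 3901 genes. Doublets were not called. The members and gene lists were chosen with earlier results of these data known, and all 6 members with counts, the listed genes and the 5 closest genes per member are named. Alternatives changed the wells, the scaling, the filter, the fold and the correlation. The calculations were tested on simulated data. Python 3.11.15, numpy 2.4.6, pandas 2.3.3, scipy 1.17.1, R 4.3.3, scran 1.30.0 and edgeR 4.0.16 (TMM factors only) were used.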

Additional observations from a re-analysis of the deposited data

How the results depend on the processing

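The S100a8 to S100a9 ratio in granulocytes moved out of its interval only in plate rows G (0.819) and H (0.870), among 9 alternatives. These include leaving out the B lymphocyte well A8, which could not change a granulocyte ratio. The median share of the pair ran from 9.68% to 13.5% under 12 alternatives, beside 11.4% in the main analysis. All lay within 1 SD of the wells, but this is a loose limit, as the SD was 5.31 percentage points. The 12 include leaving out well A8 and the depth limit that the main value already used, and neither could move the median. The 4 counts of members at least 2-fold higher in granulocytes stayed within 1.5 times under 15 alternatives each, between 4 and 5 against LSK, 4 and 6 against erythroblasts, 4 and 5 against B lymphocytes, and at 4 against T lymphocytes. The count at least 2-fold lower, 0 in the main analysis, became 1 (S100a10) under 4 of 10 other choices of wells or scaling against T lymphocytes, 2 against B lymphocytes and 1 against LSK. TMM moved the median log2 ratio of all genes by 0.77 against LSK, -0.09 against erythroblasts, 0.66 against B lymphocytes and 0.75 against T lymphocytes, and scaling to ERCC moved it by -0.96, -0.84, 0.37 and -0.06. The log2 ratios of S100a6, S100a8, S100a9 and S100a11 exceeded 2.50 under every alternative. Of 264 recomputed log2 ratios of members, 72 left the interval of the main value, and 0 past 2-fold changed sign. Here and in the counts of members, leaving out well A8 could act only on the comparison with B lymphocytes. As a Pearson correlation of log2(CPM + 10) over the 94 wells, S100a8 with S100a9 was 0.98 and S100a6 with S100a11 0.42, under S100a8 with S100a11 (0.64) and S100a9 with S100a11 (0.62), so the 2 pairs do not separate there. Leaving out the wells with Gr1 under 2000, or well I13, was added after the data were seen. Well I13 was picked for its S100a10 count, so leaving it out could only raise the S100a10 fold. No paired analysis was possible because each population is 1 sample of the same mouse and wells carry no shared replicate numbers. Depth limits S100a13 most, with 67 UMIs in all.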
